A study of Rattus norvegicus with 96 samples.

Results

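The genes Parg, Amd1, Ap5m1, Siglec5, Zfp512, Gpatch11, Nsrp1, Tnrc6c, Fcrl2 and Retsat were followed because each differed in 1 direction between rats that had drunk alcohol and alcohol naive rats in all 8 brain regions measured. They are 10 of the 14218 genes on the array. Of the 7714 genes with a mean log2 signal above 4 in every region, 335 kept 1 sign in 8 of 8 regions, 123 of them higher in drinking rats (1.59%) and 212 lower (2.75%), and the rule does not state how the 10 were picked from these. By size of the mean difference over regions, Siglec5 ranked 1 of the 335, Fcrl2 ranked 7, Amd1 ranked 8, Parg ranked 13 and Zfp512, the smallest of the 10, ranked 66. Each gene was read through the probe set annotated to its symbol alone, and through the brightest one where there were several. Because the difference between drinking and naive rats chose the genes, it is described here and not tested.

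RNA came from 8 microdissected regions of adult male Wistar rats: medial prefrontal cortex (mPFC), nucleus accumbens core (NAcC) and shell (NAcSh), central (CeA) and basolateral (BLA) amygdala, dorsolateral (dlBNST) and ventral (vBNST) bed nucleus of the stria terminalis, and ventral tegmental area (VTA). Dependent rats self-administered 10% alcohol for 4 weeks, with 4 weeks of vapor exposure to alcohol after that. Non-dependent rats self-administered alcohol without vapor, and age-matched naive rats had no alcohol. Tissue was taken in abstinence, 3 weeks past the end of the vapor. The dependent and non-dependent groups together are called drinking rats, and a difference of drinking minus naive rats uses the mean of the 2 group means. Each group had 4 arrays per region, 96 arrays in all, and 4 were left out: vBNST of dependent replicate 1, and CeA of non-dependent replicate 2, BLA of non-dependent replicate 3 and VTA of non-dependent replicate 2. Their highest correlations with any other array were 0.345 to 0.961, against 0.989 or more for each of the 92 arrays kept. In these bulk samples, fewer cells of a type and less RNA per cell cannot be told apart.

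The genes belong to unlike parts of cell biology. Parg encodes the glycohydrolase that removes poly(ADP-ribose) from proteins after PARP enzymes have added it, Amd1 the S-adenosylmethionine decarboxylase that supplies the building block for spermidine and spermine, and Retsat a saturase that converts retinol to dihydroretinol. Nsrp1 is a splicing regulator of nuclear speckles, Gpatch11 carries the G-patch domain shared by many RNA processing factors, and Tnrc6c is a GW182 scaffold that links Argonaute and its microRNA to the deadenylases that silence a transcript. Siglec5 and Fcrl2 are receptors of the immunoglobulin superfamily. Siglec5 is known from human myeloid cells as an inhibitory receptor for sialic acid, and Fcrl2 carries the RefSeq synonym Fcrls, in mouse a marker of microglia. Ap5m1 is the mu subunit of the adaptor complex AP-5 of late endosomes, and Zfp512 is a zinc finger protein.

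RefSeq promoter windows of the rat build GRCr8 matched 8 of the 10 genes, and for 4 of them the window ended at the start of the annotated gene. These 4 are shown as 250 bases before the start, 5′ to 3′, because they hold a pair of genes that were lower in drinking rats (Zfp512 and Retsat) and a pair that were higher (Ap5m1 and Nsrp1). Capitals mark matches on either strand to the motifs TATAAA (the TATA box), CCAAT (the CCAAT box), GGGCGG (the GC box), CACGTG (an E-box) and CCGGAAG (the core bound by ETS factors), and no match overlaps another in these windows.
Zfp512 (chr6:30727896-30728145, minus strand): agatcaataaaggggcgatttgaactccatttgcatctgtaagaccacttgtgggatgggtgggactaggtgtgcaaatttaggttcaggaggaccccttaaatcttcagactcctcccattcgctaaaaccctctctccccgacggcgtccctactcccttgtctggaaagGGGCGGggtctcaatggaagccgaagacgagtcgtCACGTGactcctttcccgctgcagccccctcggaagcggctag
Retsat (chr4:106211209-106211458, plus strand): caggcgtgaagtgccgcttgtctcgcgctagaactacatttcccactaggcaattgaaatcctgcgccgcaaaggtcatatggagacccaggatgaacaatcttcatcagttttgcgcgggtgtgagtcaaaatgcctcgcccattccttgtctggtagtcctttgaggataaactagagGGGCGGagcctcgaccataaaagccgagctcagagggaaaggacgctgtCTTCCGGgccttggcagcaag
Ap5m1 (chr15:24834872-24835121, plus strand): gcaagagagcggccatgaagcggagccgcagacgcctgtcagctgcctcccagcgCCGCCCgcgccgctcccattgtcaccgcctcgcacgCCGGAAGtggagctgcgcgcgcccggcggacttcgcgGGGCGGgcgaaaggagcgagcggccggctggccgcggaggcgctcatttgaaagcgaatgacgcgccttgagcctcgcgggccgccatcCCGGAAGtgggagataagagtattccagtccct
Nsrp1 (chr10:62412602-62412851, minus strand): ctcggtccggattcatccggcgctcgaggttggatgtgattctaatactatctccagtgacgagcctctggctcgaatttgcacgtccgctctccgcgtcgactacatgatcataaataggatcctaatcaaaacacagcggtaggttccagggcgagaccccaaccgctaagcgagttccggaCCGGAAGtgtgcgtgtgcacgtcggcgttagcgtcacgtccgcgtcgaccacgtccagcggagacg
The ETS core occurred once each in the windows of Retsat and Nsrp1 and at 2 places in that of Ap5m1, and thus in genes of both directions. Among the 8 genes with a window it was also found in Parg. It occurred in 9.01% of 21842 protein-coding promoter windows of the same length. The GC box was present in Zfp512, Retsat and Ap5m1 (38.9% of all windows), the E-box only in Zfp512 of the 4 (6.16%), and the TATA box (12.1%) and the CCAAT box (35%) in none of them. A match is a run of letters and was not tested as a binding site.

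Averaged over regions, 6 genes were lower and 4 were higher in drinking than in naive rats. Siglec5 was lowest, at -1.41 on the log2 scale, followed by Amd1 (-0.64), Parg (-0.57), Retsat (-0.46), Gpatch11 (-0.45) and Zfp512 (-0.29). Fcrl2 was highest, at 0.74, followed by Ap5m1 (0.36), Tnrc6c (0.36) and Nsrp1 (0.33). The median of all genes in this difference was -0.03. The smallest shift inside the rule was that of Nsrp1 in the NAcC, 0.00, which turned to -0.02 after quantile normalization and to -0.01 after scaling to 1 median, and the next were those of Nsrp1 in the CeA, 0.06, and of Zfp512 in the NAcC, -0.09. Just outside the rule stood 1060 genes with 7 of 8 regions on 1 side, of which the largest by mean was Egr2, an immediate early transcription factor, at 0.78 with -0.23 in the VTA.

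**Figure D1:**
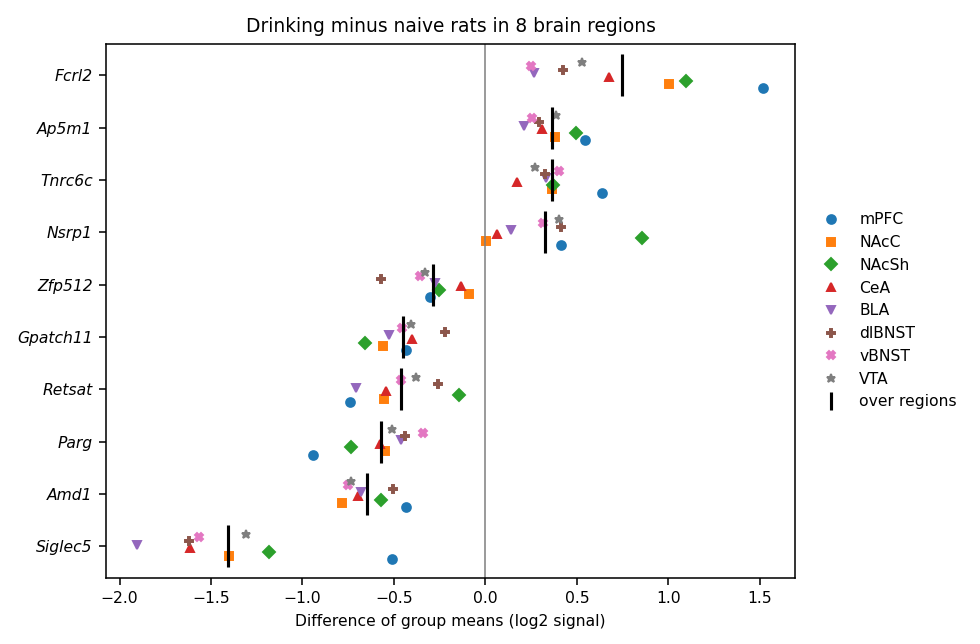
Drinking minus naive rats for each gene (rows) in each of 8 brain regions (symbols), as the difference of group means on the log2 scale, with the value over regions as a black bar. All symbols of 6 genes lie below 0 and those of 4 genes above it, with Nsrp1 in the NAcC at 0.00, on the other side of 0 (-0.02) after quantile normalization.

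To set the groups side by side without counting each region as a replicate, each gene was also averaged over regions for each group and replicate number. This gave 4 means per group. The labels do not say that a number is the same rat in every region, so a mean may mix rats. Deviations of arrays from their region and group correlated between regions at a median r of -0.004 for the same group and number. For other numbers of the group the median was -0.018. SE, CI and p-values over regions thus measure the spread of these means and cannot be read as the spread between rats. The 8 means of drinking rats and the 4 of naive rats did not overlap for 8 of the 10 genes, all but Gpatch11 and Tnrc6c. Over 8762 genes this was so for 1.12% higher and 2.89% lower, and since this contrast chose the genes nothing is read from the count. Within single regions, the arrays of drinking and naive rats did not overlap in 9 of 80 gene and region pairs, against 1.41% over all genes and regions. The same contrast chose the genes, so nothing is read from this count either.

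**Figure D2:**
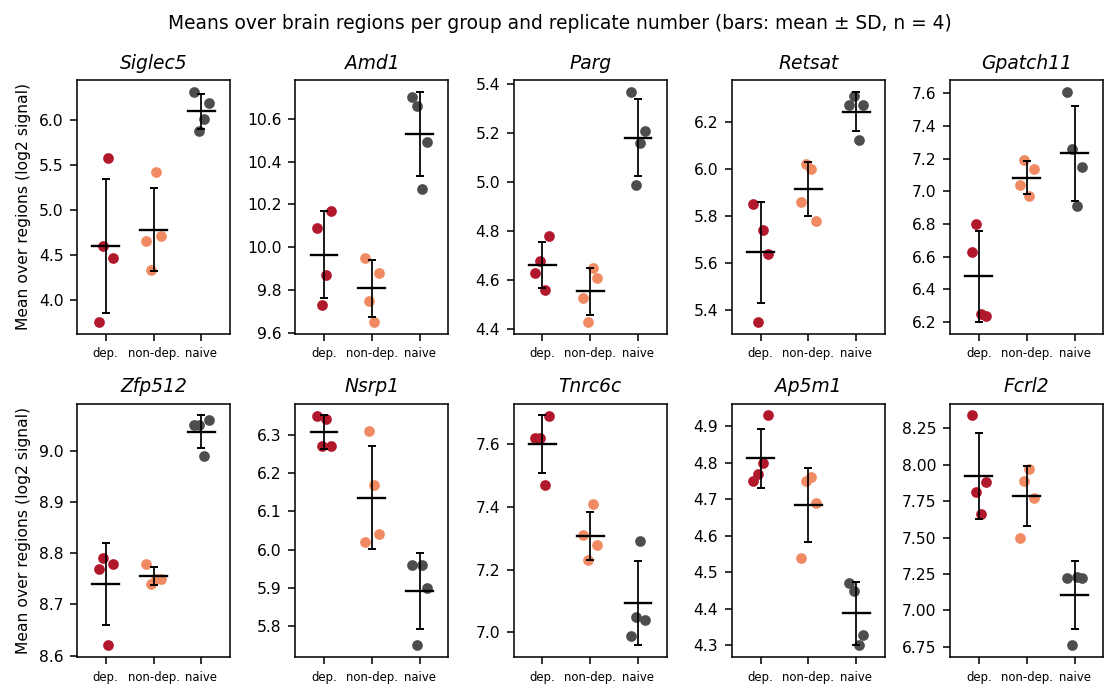
Means over brain regions for each gene (panels; log2 signal), with 1 point for each of 4 replicate numbers in dependent, non-dependent and naive rats, and bars at the mean ± SD. Gpatch11 means of dependent rats (6.24 to 6.80) lie below those of non-dependent rats (6.97 to 7.19), and Tnrc6c means of dependent rats (7.47 to 7.69) above those of non-dependent rats (7.23 to 7.41).

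Among the genes of RNA processing and silencing, Gpatch11 had the widest difference between the drinking groups of all 10 genes. Its 4 means over regions were 6.63, 6.80, 6.25 and 6.24 in dependent rats, 7.04, 7.19, 6.97 and 7.14 in non-dependent rats, and 7.61, 7.26, 6.91 and 7.15 in naive rats. All 4 means of dependent rats lay below every mean of the other 2 groups, whereas the means of non-dependent and naive rats overlapped. Dependent minus non-dependent rats, a comparison that the choice of genes did not use, gave -0.60 ± 0.14 (SE; 95% CI -0.91 to -0.30; n = 4 each), with a limma adjusted p of 0.0979 over 8762 genes, which did not pass 0.05. The difference was below 0 in 8 of 8 regions, between -0.27 in the NAcSh and -0.92 in the vBNST, and 1.52% of genes were lower in 8 of 8 regions. In the vBNST, arrays of dependent rats read 6.96, 6.44 and 6.24, against 7.08, 8.26, 7.09 and 7.43 in non-dependent rats. In the CeA, they read 6.35, 7.04, 6.60 and 6.40 in dependent rats, against 7.13, 7.24 and 7.37 in non-dependent rats. Neither of these regions overlapped between the groups, and the other 6 did. Non-dependent rats alone were lower than naive rats in 6 of 8 regions (-0.15 over regions), and dependent rats in 8 of 8 (-0.75).

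Tnrc6c went the other way. Its means over regions were 7.62, 7.62, 7.47 and 7.69 in dependent rats, 7.31, 7.23, 7.41 and 7.28 in non-dependent rats, and 6.99, 7.05, 7.29 and 7.04 in naive rats. The dependent means lay above every mean of the other groups, and the non-dependent and naive means overlapped through 1 naive value. Dependent minus non-dependent rats gave 0.29 ± 0.07 (SE; 95% CI 0.15 to 0.44; n = 4 each) with a limma adjusted p of 0.0952, higher in 8 of 8 regions (0.11 in the vBNST to 0.59 in the dlBNST), as were 0.972% of genes. Without dependent replicate 3 the limma adjusted p was 0.0473, in a fit that called 58 genes where the main fit called 2. With all 96 arrays it was 0.601. In the dlBNST, its arrays read 7.41, 8.01, 7.58 and 8.20 in dependent rats, 7.11, 7.16, 7.62 and 6.96 in non-dependent rats, and 7.0, 7.08, 7.25 and 7.39 in naive rats. There, 1 non-dependent array fell among the dependent ones.

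Nsrp1 means over regions were 6.35, 6.27, 6.34 and 6.27 in dependent rats, 6.02, 6.31, 6.17 and 6.04 in non-dependent rats, and 5.96, 5.75, 5.96 and 5.90 in naive rats. The drinking groups overlapped through 1 non-dependent mean, and both lay above all naive means. Between the drinking groups, dependent minus non-dependent rats gave 0.17 ± 0.06 (SE; limma adjusted p = 0.274), above 0 in 7 of 8 regions. In the mPFC, the 3 groups did not overlap at all, at 6.10 to 6.23 in dependent rats, 5.76 to 6.09 in non-dependent rats and 5.40 to 5.74 in naive rats. In the dlBNST, dependent arrays read 6.27, 6.64, 6.49 and 6.19, against 5.80, 5.77, 6.03 and 5.82 in non-dependent and 5.79, 5.87, 5.59 and 5.60 in naive rats. There the dependent arrays stood above both other groups, which overlapped. The difference to non-dependent rats was 0.54 ± 0.12 (SE; unadjusted p = 0.000557, limma adjusted p = 0.486). The largest difference from naive rats was in the NAcSh (0.85), where dependent rats averaged 6.93, non-dependent rats 6.90 and naive rats 6.06. Dependent rats alone were above naive rats in 8 of 8 regions, and non-dependent rats alone in 7 of 8, with -0.12 in the NAcC.

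Of the enzymes, Parg and Amd1 stood below naive rats in both drinking groups. Parg means over regions were 4.63, 4.68, 4.56 and 4.78 in dependent rats, 4.53, 4.43, 4.65 and 4.61 in non-dependent rats, and 5.37, 4.99, 5.16 and 5.21 in naive rats. Both drinking groups overlapped and lay below every naive mean. The difference from naive rats was -0.52 in dependent and -0.63 in non-dependent rats, and below 0 in 8 of 8 regions in each. It was widest in the mPFC (-0.94), where arrays read 5.07, 5.42, 4.51 and 5.18 in dependent rats, 4.48, 4.54, 4.92 and 4.55 in non-dependent rats, and 6.07, 5.34, 5.75 and 5.93 in naive rats. There, 1 dependent array exceeded the lowest naive array. Dependent rats differed from non-dependent rats by 0.11 ± 0.08 (SE; 95% CI -0.06 to 0.27; limma adjusted p = 0.608). Parg signals were low, and 90 of 92 arrays were above 4.

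Amd1 was bright. Its means over regions were 10.09, 9.73, 9.87 and 10.17 in dependent rats, 9.95, 9.75, 9.65 and 9.88 in non-dependent rats, and 10.70, 10.66, 10.27 and 10.49 in naive rats. The 2 drinking groups overlapped below all naive means. The difference from naive rats ran from -0.78 in the NAcC to -0.43 in the mPFC. Only in the NAcC did arrays of drinking rats (10.04, 10.32, 9.78 and 10.44 in dependent and 9.76, 9.60, 9.83 and 10.00 in non-dependent rats) all lie below those of naive rats (10.88, 10.56, 10.55 and 11.04). The difference of dependent minus non-dependent rats was 0.16 ± 0.11 (SE; 95% CI -0.07 to 0.39; limma adjusted p = 0.574).

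Retsat was graded between the groups, with means over regions of 5.85, 5.35, 5.74 and 5.64 in dependent rats, 5.86, 6.02, 6.00 and 5.78 in non-dependent rats, and 6.27, 6.31, 6.12 and 6.27 in naive rats. The drinking groups overlapped through 1 mean of dependent rats (5.85), and both lay below all naive means. Dependent minus non-dependent rats gave -0.27 ± 0.09 (SE; 95% CI -0.47 to -0.08; limma adjusted p = 0.215), below 0 in 8 of 8 regions, from -0.53 in the dlBNST to -0.00 in the NAcSh. In the NAcC, arrays read 5.26, 4.66, 5.32 and 5.63 in dependent rats, 5.10, 5.45, 5.59 and 5.49 in non-dependent rats, and 5.92, 5.83, 5.89 and 5.84 in naive rats. This was the only region where the drinking and naive arrays of Retsat did not overlap, and the naive arrays there spread by an SD of 0.04. Dependent rats alone were below naive rats in 8 of 8 regions, and non-dependent rats alone in 7 of 8, with 0.01 in the dlBNST.

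Siglec5 had the widest difference from naive rats, and it came from arrays that fell into a low and a high set. Outside the mPFC, naive rats read from 5.43 to 7.84 on all 28 arrays (median 6.15). Dependent rats read from 3.53 to 7.25 on 27 arrays (median 4.07), and non-dependent rats from 3.52 to 6.96 on 25 arrays (median 4.15). No array of these 7 regions lay between 4.75 and 5.20. The low set was dim: with the mPFC included, 72 of 92 arrays were above 4, and array medians were 3.81 to 3.94. How far the low values, and thus the size of the difference, measure Siglec5 above background was not tested. Above 5, a value chosen after the signals were seen, stood 8 of 27 dependent arrays, 11 of 25 non-dependent arrays and 28 of 28 naive arrays. Each drinking group had 1 or 2 such arrays in every one of the 7 regions. Among dependent arrays, those numbered 3 were high in 5 of 7 regions, those numbered 2 in 2 of 7, those numbered 4 in 1 of 7 and those numbered 1 in 0 of 6. Among non-dependent arrays, those numbered 3 were high in 4 of 6 regions, those numbered 1 and those numbered 4 in 3 of 7 each, and those numbered 2 in 1 of 5. In the dlBNST, dependent rats read 3.53, 6.00, 3.81 and 3.79, non-dependent rats 3.65, 4.09, 6.96 and 3.70, and naive rats 5.73, 6.19, 6.40 and 5.93. In the mPFC, where Siglec5 was dimmest in naive rats, the 3 groups overlapped, at 3.38 to 5.01 in dependent rats, 3.0 to 4.81 in non-dependent rats and 4.10 to 4.85 in naive rats.

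**Figure D3:**
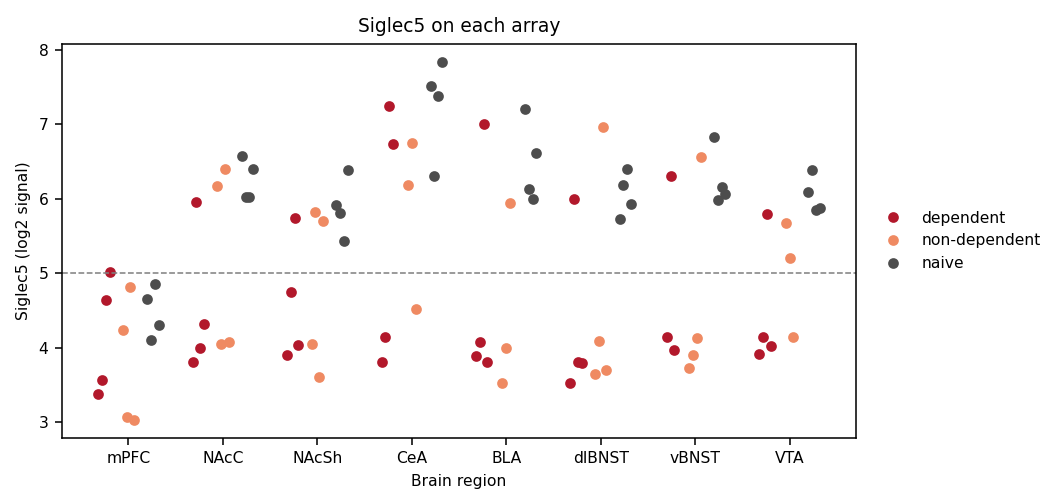
Siglec5 log2 signal on each of 92 arrays, by brain region, with dependent, non-dependent and naive rats from left to right and a dashed line at 5. Outside the mPFC all 28 naive arrays lie above the line, with 8 of 27 dependent and 11 of 25 non-dependent arrays.

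Over regions, Siglec5 gave -0.18 ± 0.30 (SE; 95% CI -0.82 to 0.46; limma adjusted p = 0.846) for dependent minus non-dependent rats, and the sign turned without dependent replicate 1 (0.10) or without non-dependent replicate 3 (0.04). Of 12 other microglial and myeloid markers, 5 passed the filter on dim genes. Of these, 0 passed the test in drinking against naive rats (the smallest adjusted p was 0.0662, for Csf1r, the receptor of the growth factor CSF1, at -0.19). The mean log2 signal of the 12 was 4.91 to 4.94 in dependent, 4.97 to 4.99 in non-dependent and 4.90 to 5.03 in naive rats over the 4 means of each group. The mean of 7 B and T cell markers, of which 1 passed the filter, was 2.92 to 3.01 over all 12 means. Both marker means include dim genes under the filter, which limits what they show. The part of other cells in the Siglec5 signal was not tested.

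Fcrl2, the other receptor, was higher in drinking rats, with means over regions of 8.34, 7.81, 7.66 and 7.88 in dependent rats, 7.50, 7.89, 7.97 and 7.77 in non-dependent rats, and 7.22, 6.76, 7.23 and 7.22 in naive rats. The drinking groups overlapped above all naive means. In the mPFC, where the difference was 1.52, arrays read 7.72, 7.55, 6.78 and 6.71 in dependent rats, 7.51, 7.38, 7.95 and 7.47 in non-dependent rats, and 5.97, 5.11, 6.67 and 5.70 in naive rats. All 8 drinking arrays there were above all 4 naive ones. In the BLA (0.26) and vBNST (0.25) the difference was smallest, and single arrays of non-dependent rats fell below every naive array, at 5.53 in the BLA and 6.26 in the vBNST. Dependent rats alone were above naive rats in 8 of 8 regions. Non-dependent rats alone were above them in 7 of 8, with 0.01 in the dlBNST, and below them in the BLA (-0.16). Dependent minus non-dependent rats gave 0.14 ± 0.14 (SE; 95% CI -0.17 to 0.45; limma adjusted p = 0.735), with 4 regions on each side of 0. Fcrl2 moved with the 3′ to 5′ difference of the beta-actin control probe sets, which moves with RNA length: its deviations from the mean of region and group correlated with that difference at r = 0.58 over 92 arrays, which share rats and regions. This difference was itself 7.93 ± 0.07 in dependent, 8.00 ± 0.15 in non-dependent and 7.49 ± 0.10 in naive rats (SD, n = 4 means), higher in drinking rats in 7 of 8 regions. That of Gapdh ran the other way, at 1.62 ± 0.10 in dependent, 1.74 ± 0.07 in non-dependent and 1.87 ± 0.04 in naive rats (SD, n = 4 means). For the other 9 genes r with the beta-actin difference ran from -0.35 (Amd1) to 0.25 (Gpatch11), and the part of RNA length in these values was not tested.

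Ap5m1, the endosomal adaptor subunit, was higher in both drinking groups. Its means over regions were 4.75, 4.77, 4.80 and 4.93 in dependent rats, 4.54, 4.75, 4.76 and 4.69 in non-dependent rats, and 4.47, 4.45, 4.30 and 4.33 in naive rats. Both drinking groups lay above the naive means and overlapped each other. Arrays of drinking and naive rats did not overlap in the NAcSh, CeA and VTA. In the NAcSh they read 4.94, 5.39, 4.85 and 5.37 in dependent, 4.92, 4.70, 4.73 and 5.12 in non-dependent and 4.69, 4.32, 4.61 and 4.40 in naive rats. Set against non-dependent rats, dependent rats gave 0.13 ± 0.06 (SE; limma adjusted p = 0.401). The signal was dim, with 89 of 92 arrays above 4.

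Zfp512 means over regions were 8.77, 8.79, 8.62 and 8.78 in dependent rats, 8.78, 8.74, 8.75 and 8.75 in non-dependent rats, and 9.05, 9.05, 8.99 and 9.06 in naive rats. The naive means stood clear of both drinking groups. In the dlBNST, where the difference was -0.57, arrays read 8.83, 8.87, 9.06 and 8.90 in dependent rats, 9.14, 9.05, 8.97 and 9.07 in non-dependent rats, and 9.39, 9.57, 9.53 and 9.74 in naive rats, without overlap of drinking and naive rats. For dependent minus non-dependent rats the value was -0.01 ± 0.04 (SE; 95% CI -0.11 to 0.08; limma adjusted p = 0.920).

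Across the 10 genes, dependent and non-dependent rats were compared to ask whether the 2 drinking groups differed. The paper reports that dependent rats also took more alcohol than non-dependent rats once tested after the vapor. Vapor exposure and higher intake thus cannot be told apart in this comparison. In single regions, 0 of 80 tests passed an adjusted p of 0.05 in limma, and 0% of the 8445 to 8989 genes tested per region passed. At an unadjusted p under 0.05, 10 of 80 tests passed, against 7.17% of all tests. The arrays of the 2 groups did not overlap in 6 of 80 gene and region pairs, against 5.96% of all. Over regions, 0 of 10 genes and 0.0228% of 8762 genes passed the adjusted threshold, while 12.9% of genes had an unadjusted p under 0.05, as did 4 of the 10 (Tnrc6c, Gpatch11, Retsat and Nsrp1). The genes that passed, named after their values were seen, were Esyt2, a tether of endoplasmic reticulum and plasma membrane (0.37, adjusted p = 0.0333), and C13h1orf21 (-0.71, adjusted p = 0.0333). The means of the 2 groups did not overlap for Tnrc6c, as for 2.85% of genes that were higher, and for Gpatch11, as for 4.65% that were lower. A test of whether this difference varied between regions passed for 0 of the 10 genes (limma F test, adjusted p from 0.631 to 0.998) and for 0.331% of all genes.

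**Figure D4:**
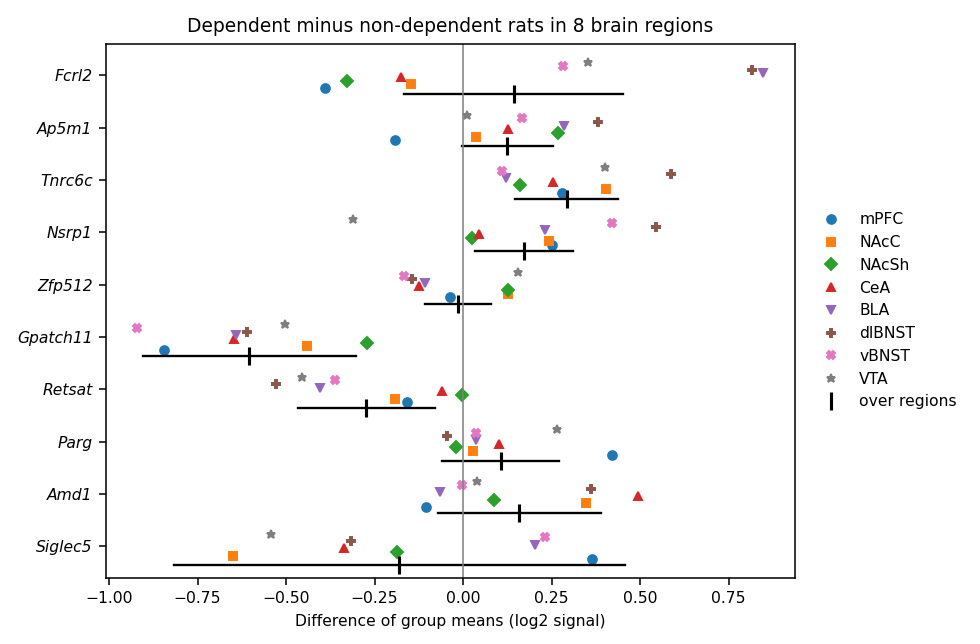
Dependent minus non-dependent rats for each gene (rows) in 8 brain regions (symbols), on the log2 scale, with the value over regions (short bar) and its 95% CI (line) below the symbols. Symbols of Gpatch11 and Retsat lie at or below 0 in 8 of 8 regions and those of Tnrc6c above 0, and the other 7 genes have regions on both sides.

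Among naive rats, whose levels between regions the choice of genes did not use, 8 of 10 genes differed between regions (limma F test over 32 arrays), where 96.6% of all genes did. Amd1 (adjusted p = 0.842) and Gpatch11 (adjusted p = 0.112) did not pass. Amd1 region means ran from 10.26 ± 0.47 in the CeA to 10.76 ± 0.24 in the NAcC (SD, n = 4 each). Siglec5 had the widest range, from 7.26 ± 0.67 in the CeA to 4.48 ± 0.34 in the mPFC. The mPFC stood 1.41 ± 0.28 (SE) below its neighbour in the order, the NAcSh. Zfp512 was highest in the vBNST (9.97 ± 0.35), followed by the dlBNST (9.56 ± 0.15), the BLA (9.24 ± 0.17), the VTA (9.15 ± 0.14), the CeA (8.98 ± 0.08), the mPFC (8.79 ± 0.07), the NAcSh (8.50 ± 0.07) and the NAcC (8.09 ± 0.33), with neighbours within 3 SE of each other. Fcrl2 ran from 7.61 ± 0.44 in the BLA to 5.86 ± 0.65 in the mPFC, which stood 0.95 ± 0.31 (SE) below the VTA. Retsat ran from 7.14 ± 0.35 in the mPFC to 5.47 ± 0.41 in the NAcSh. Retsat in the mPFC was 0.74 ± 0.18 (SE) above its neighbour, the VTA. Tnrc6c ran from 7.67 ± 0.10 in the CeA to 6.11 ± 0.14 in the VTA, which stood 0.72 ± 0.18 (SE) below the vBNST. Parg was highest in the mPFC (5.77 ± 0.31) and lowest in the VTA (4.78 ± 0.42), Nsrp1 highest in the NAcC (6.41 ± 0.50) and lowest in the VTA (5.48 ± 0.32), and Ap5m1 highest in the VTA (4.64 ± 0.06) and lowest in the mPFC (3.91 ± 0.51). Besides these 4 pairs, the other 66 of 70 pairs of neighbours in the order of levels differed by 3 SE or less.

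**Figure D5:**
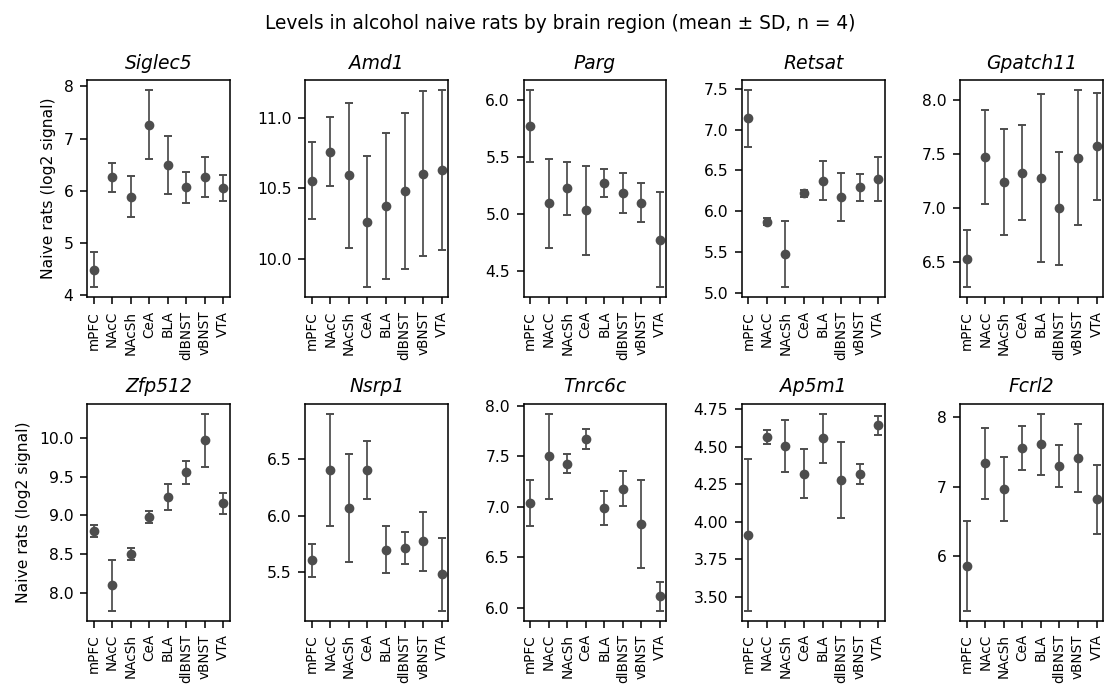
Level of each gene (panels; log2 signal) in alcohol naive rats by brain region, as mean ± SD of 4 arrays. Siglec5 and Fcrl2 are lowest in the mPFC (4.48 and 5.86), where Retsat is highest (7.14).

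The dissections carried their markers. The mean of 5 dopamine neuron markers was 8.23 to 9.73 in the VTA, against 3.21 to 4.26 in the other regions. That of 4 cortical glutamatergic markers was 8.05 to 8.50 in the mPFC and 6.85 to 7.63 in the BLA. In the NAcSh, 1 array stood at 6.73, where the median of that region was 4.31. Over all genes, 3.55% were called lower and 1.86% higher in drinking than in naive rats. Of 6 oligodendrocyte markers tested, 3 were called lower. These were the myelin genes Mbp (-0.23, limma adjusted p = 0.0254), Mobp (-0.17, 0.0461) and Cnp (-0.19, 0.0486), the last 2 close to the threshold. The mean of 7 such markers was 8.85 to 8.93 in dependent, 8.93 to 9.02 in non-dependent and 8.99 to 9.09 in naive rats. The marker calls were not repeated with all 96 arrays. Of 2 red blood cell markers tested, Hbb, a hemoglobin chain, was called higher (0.31, limma adjusted p = 0.0210), and Slc4a1 stood at 0.01. Of 6 markers of striatal neurons, 4 were above 0 and 2 below, among them Tac1 (-0.13). Only Adora2a of these was called (0.31, limma adjusted p = 0.0293). The part of these cells in the values of the 10 genes was not tested.

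Other genes of the same pathways, none of them among the 10, were tested in drinking against naive rats over regions, where 5.41% of 8762 genes passed (1.86% higher and 3.55% lower). Of 13 tested genes of poly(ADP-ribose) turnover, only Parp4 passed, higher by 0.22 (adjusted p = 0.0300; 8 of 8 regions), with a list median of -0.01. Of 15 genes of polyamine metabolism, only Paox, which oxidizes acetylated polyamines, passed, at -0.26 (adjusted p = 0.0285; lower in 8 of 8 regions), with a median of -0.06. Stra6, a membrane receptor for retinol binding protein, was the only one of 10 retinoid genes to pass (0.23, adjusted p = 0.0427), and Aldh1a1, which makes retinoic acid, stood at -0.43 (adjusted p = 0.0604). Of 16 genes of microRNA silencing, Tnrc6b, the paralog of Tnrc6c, passed at 0.20 (adjusted p = 0.0298; higher in 8 of 8 regions), with means of 8.10 in dependent, 7.95 in non-dependent and 7.82 in naive rats. Rbm5, a splicing factor with a G-patch, was the only one of 22 splicing genes to pass (0.21, adjusted p = 0.0217; higher in 8 of 8 regions). Of 11 adaptor subunits only Ap4b1 passed (-0.22, adjusted p = 0.0298). Of 8 zinc finger and heterochromatin genes, the chromatin remodeler Atrx (0.26, adjusted p = 0.0253) and Cbx1, an HP1 protein (0.25, adjusted p = 0.0360), passed. Of 4 siglec and Fc receptor genes, 0 passed, with Mag, a siglec of myelin, at -0.10 (adjusted p = 0.252) and Cd33, a siglec of myeloid cells, at -0.07 (adjusted p = 0.469). In all, 8 of 99 list genes passed, and the count fell to 1 without naive replicate 4 and to 0 with all 96 arrays.

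Gpatch11, Nsrp1 and Tnrc6c had further probe sets of their own. That of Gpatch11 was dim (3.5) and gave -0.05 in drinking against naive rats. For Nsrp1 the others gave 0.13 and 0.01, and for Tnrc6c the bright one (7.0) gave 0.05 with 6 of 8 regions above 0 and 3 dim ones between -0.04 and 0.00. No other probe set of these 3 genes kept 1 sign in 8 of 8 regions. With the mean of all probe sets, the difference was -0.25 for Gpatch11, 0.16 for Nsrp1 and 0.07 for Tnrc6c. For dependent minus non-dependent rats, the dim probe set of Gpatch11 gave 0.01 and the bright one of Tnrc6c 0.09 with 5 of 8 regions above 0. For Nsrp1, 1 further probe set gave 0.19 with 6 of 8 regions above 0, and the other (mean log2 signal 5.34) gave -0.11 with 6 of 8 below 0, opposite to the one used (0.18, 7 of 8 above 0). The mean of all probe sets gave -0.30 for Gpatch11 (limma adjusted p = 0.120), 0.08 for Nsrp1 (0.471) and 0.09 for Tnrc6c (0.279) in this comparison.

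Within groups, the 10 genes varied apart from one another. Over 92 arrays, deviations from the mean of region and group correlated with a median r of -0.01 over 45 pairs of the genes (range -0.23 to 0.33), and with -0.00 over the 21 pairs that shifted in 1 direction. The genes that varied most like them were LOC100911253 (r = 0.62), Pex19 (0.46) and Asphd2 (0.46) for Parg, and Dnm1l (0.71), Dnaaf10 (0.62) and Perp (0.60) for Amd1. For the others these were Mrpl50 for Gpatch11 (0.63), Jhy for Siglec5 (0.62), Scpep1 for Retsat (0.61), Grm5 for Fcrl2 (0.60), Eif5b for Nsrp1 (0.58), Cdh22 for Tnrc6c (0.54), Rab5if for Ap5m1 (0.51) and C2h1orf52 for Zfp512 (0.51). In drinking minus naive rats, Grm5, which encodes the glutamate receptor mGluR5, stood at 0.91 beside 0.74 for Fcrl2, and Mrpl50 at -0.01 beside -0.45 for Gpatch11. LOC100911253 stood at 0.55 beside -0.57 for Parg and Perp at 0.45 beside -0.64 for Amd1, both with the opposite sign. Dnm1l (-0.36) and Dnaaf10 (-0.14) had the sign of Amd1, and Asphd2 (-0.10) that of Parg. Jhy (-0.25) had the sign of Siglec5 and C2h1orf52 (-0.09) that of Zfp512. Eif5b (0.34) had the sign of Nsrp1, Cdh22 (0.26) that of Tnrc6c and Rab5if (0.01) that of Ap5m1. Pex19 (0.03) and Scpep1 (0.05) had signs opposite to Parg and Retsat.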

How the data were processed

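Brain RNA was measured on Affymetrix rat arrays (96 arrays, 8 regions, 3 groups). The deposited values are log2 signals made by the authors with GCRMA 2.36.0 under R 3.03, per the labels; they were used without further scaling (array medians of the 92 arrays used 3.81 to 3.94). Of 31099 probe sets, 20832 are annotated to 1 gene, 436 to several and 9831 to none here, and per gene the brightest single-gene probe set was kept. Arrays carry no read depth, and the number of arrays limits precision. Fits used limma 3.58.1 in R 4.3.3 with Benjamini-Hochberg adjustment over all genes with a mean above 4, at a threshold of 0.05: 1 fit per region, 1 on 12 means over regions (region-centred, 4 per group), and 1 over the naive arrays. Figures were drawn with matplotlib 3.10.9 in Python 3.11.15. Labels do not tie replicate numbers to rats, so p-values measure the spread between these samples. Across groups, same-numbered arrays correlated above 0.1 in every pair in 0 of 24 within-region comparisons, so numbers were not taken to pair samples. Gene names follow a rule: the 10 genes, per pathway list up to 4 genes past the threshold or else the smallest p, and per gene the 1 to 3 most alike in deviations; Aldh1a1, Csf1r, Egr2, Esyt2 and C13h1orf21, and the markers named, were chosen after their values were seen. The 10 genes, the lists and the rules were chosen with earlier results of these data known. The fits of dependent minus non-dependent rats, for the NAcC and over regions, were run on simulated data with added changes. In the NAcC, 1 of 51 genes changed by 0.3 was called, 32 of 67 changed by 0.6 and 68 of 74 changed by 1.2. Over regions these were 54 of 71, 59 of 61 and 68 of 68. Of unchanged genes, 10 of 8239 and 10 of 8562 were called. Noise was drawn apart for each array, so the simulation cannot show how the fit over regions holds where regions share rats. Alternatives were other arrays, scaling, filters, probe set rules, fit units, array weights, a replicate block and leaving out each replicate number.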

Additional observations from a re-analysis of the deposited data

Results flagged for a closer look

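In groups of 4 arrays, 1 array stood far from the other 3 by Dixon's criterion in 18 of 230 groups tested; chance gives about 1 in 20 such groups. Siglec5 gave 5 of the 18, each a high array of drinking rats among low ones: 7.0 in dependent BLA (others 3.81 to 4.07), 6.00 in dependent dlBNST (3.53 to 3.81), 6.96 in non-dependent dlBNST (3.65 to 4.09), 6.56 in non-dependent vBNST (3.73 to 4.13) and 5.80 in dependent VTA (3.91 to 4.14). For Parg the arrays were 4.92 in non-dependent mPFC (others 4.48 to 4.55), 5.25 in dependent NAcC (4.25 to 4.41) and 4.92 in naive dlBNST (5.23 to 5.30). Amd1 read 11.07 in 1 dependent NAcSh array (others 9.66 to 9.83), and Tnrc6c 8.21 in another of that group (7.73 to 7.80). Ap5m1 read 4.62 in non-dependent NAcC (4.99 to 5.05) and 4.08 in naive CeA (4.39 to 4.43). Zfp512 read 9.15 in dependent VTA (8.80 to 8.83) and 8.95 in naive VTA (9.20 to 9.24), and 1 of its dependent means over regions was 8.62 (8.77 to 8.79). Fcrl2 read 8.71 in non-dependent NAcC (8.27 to 8.34) and 6.29 in naive NAcSh (7.12 to 7.26), and 1 of its naive means over regions was 6.76 (7.22 to 7.23).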

How the results depend on the processing

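For dependent minus non-dependent rats over regions, 2 genes were called in the fit of 12 means. The count was 1 with all 96 arrays, 7 with the mean of probe sets, 0 with no filter on dim genes, 0 with the replicate number as a block (replicate block), 57 with single arrays and 73 with single arrays and a block of group and number; leaving out 1 replicate number gave 0 to 58, the highest without dependent replicate 3. Of the 10 genes, 0 were called; single arrays, which count regions of the same rats as replicates, gave 2 with or without the block, Gpatch11 (adjusted p = 0.00301, or 0.00167 with the block) and Tnrc6c (0.0274, or 0.0168; their differences with all 96 arrays were -0.59 and 0.42, adjusted p = 0.601 for both), and leaving out 1 number gave 0 to 1. Array weights gave 2 calls among the 80 region tests, both in the VTA, Siglec5 (-1.29, limma adjusted p = 0.0206) and Tnrc6c (0.67, 0.0358). Without weights these were -0.54 (limma adjusted p = 0.572) and 0.40 (0.355). The share of all genes called with weights was not counted, so nothing is read from the 2 calls. The other alternatives gave 0 calls, left-out numbers included. The sign of Zfp512 in this comparison turned to 0.054 with all 96 arrays (-0.032 to 0.026 with a number left out, the highest without dependent replicate 3), and that of Siglec5 to 0.10 without dependent replicate 1 and to 0.04 without non-dependent replicate 3 (-0.50 to 0.10 with a number left out).

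Pathway genes called in drinking against naive rats numbered 8, and 0 with all 96 arrays, 5 with a filter above 6, 13 with single arrays, 16 with single arrays and the block, and 1 to 9 with a number left out (1 without naive replicate 4). Genes that differed between regions in naive rats numbered 8, 5 with a filter above 6, 9 with the replicate block and 7 to 8 with a number left out. One sign in 8 of 8 regions held for 10 genes, for 8 with all 96 arrays (not Nsrp1 and Tnrc6c, -0.02 and -0.29 in the CeA), for 9 after quantile normalization or median scaling (not Nsrp1), for 8 with the mean of probe sets (not Nsrp1 and Tnrc6c), and for 7 to 10 with a number left out. The block moved no other call. The causes were not tested. With 4 arrays per group, precision limits what single regions can show.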
